A study of Bos taurus with 30 samples.

Results

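A group of 10 miRNA names of the imprinted DLK1-DIO3 domain, most of them from the start of its long miRNA cluster, is described here in the anterior pituitary of 30 calves. They were taken from the 1030 bovine miRNA names in the data by number, as every name that carries the number of miR-299, miR-379, miR-380, miR-411 or miR-1197 after the prefix bta-, with any letter or arm. This gave 10 names, which are bta-miR-379, bta-miR-411a, bta-miR-299, bta-miR-299-2, bta-miR-380-3p, bta-miR-380-5p, bta-miR-411b, bta-miR-1197, bta-miR-411c-5p and bta-miR-411c-3p. The prefix is left out below.

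The calves were Holstein-Friesian bulls, 15 on a high plane of nutrition (HI) and 15 on a moderate one (MOD) from 2 weeks of age, and the tissue was taken from all of them at 12 weeks. HI calves were given 1.5 kg of milk replacer in 10 L per day with free access to concentrate. MOD calves were given 0.5 kg in 4 L per day with no more than 0.5 kg of concentrate. The study drew the calves from 4 farms and 15 sires and assigned diets within blocks of farm, sire, bodyweight and age. The labels of the libraries do not name farms, sires or blocks, and each calf gave 1 small RNA library.

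The DLK1-DIO3 domain is an imprinted region of placental mammals, in which the protein genes DLK1, RTL1 and DIO3 are active on the chromosome inherited from the father and a string of noncoding RNAs on the chromosome inherited from the mother. Most of its miRNAs are cut from long maternal transcripts that carry many hairpins in a row. Each hairpin can yield a mature miRNA from its 5′ arm (5p) and one from its 3′ arm (3p), and usually one arm is kept and the other degraded. The cluster is active in brain and endocrine tissue, and mice without it adapt poorly to the change from placental to milk nutrition at birth.

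Among the members, miR-379 opens the cluster and has been studied in the liver, where glucocorticoids raise it and it acts on the lipids of the blood. The names miR-411a, miR-411b and miR-411c stand for separate hairpins of related sequence. The miR-380 hairpin is known for its 5p arm, a repressor of p53 in neuroblastoma. All 10 names matched a gene in RefSeq (assembly ARS-UCD2.0), 8 genes in all, on bovine chromosome 21. From the start of the cluster the order of the first 7 was MIR379, MIR411A, MIR299, MIR299-2, MIR380, MIR411B and MIR1197, with MIR323 as the next miRNA gene, and these 7 lay within 1 annotated noncoding gene, LOC132343391. MIR411C lay apart from them, the 30th of 50 miRNA genes counted from MIR379 to MIR656, between MIR655 and MIR487A. MIR299 and MIR299-2 overlap in that annotation, so how reads were divided between miR-299 and miR-299-2 is uncertain. That build differs from the one used for the reads, so it served only for names and neighbours.

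Values are CPM, the reads on a miRNA relative to all reads on miRNAs in its library, scaled by TMM, a correction for differences in composition between libraries. Reads on miRNAs ranged from 6650492 to 11086465 per library (median 8672424 in HI and 8856697 in MOD), and 3 reads, up to which a count of 0 can hide a miRNA by counting error alone, corresponded to 0.266 to 0.419 CPM. The endocrine marker miR-375 led the marker list of pituitary cells at a mean of 146057 CPM, and the summed endocrine markers had medians of 176443 CPM on HI against 191360 CPM on MOD. Markers of other cells were present too. Their summed medians in HI and MOD calves were 45444 and 45087 CPM for the stromal and smooth muscle list, 17406 and 20588 CPM for red blood cells, 12542 and 13008 CPM for endothelium, 613 and 563 CPM for neural tissue, 636 and 547 CPM for white blood cells, and 72.2 and 73.9 CPM for striated muscle, in which 1 of 8 markers was at 0 in every library. The red blood cell list was led by miR-486, at a mean of 19194 CPM, which set most of that sum. The study reported miR-451 and miR-144, also on that list, as higher in HI calves. Surface epithelium had miR-205 as its only marker, at 205 and 338 CPM. The part of these cells in the results below was not tested. HI replicate 15 and the 9 libraries of the highest label numbers stood apart from the rest, and several results that rest on them are given with and without them. Correlations within the 9 libraries include HI replicate 15 throughout. As this is whole tissue, fewer cells of a type and less RNA per cell cannot be told apart.

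Mean levels of the members spanned from 1.05 to 52273 CPM, although most of them belong to 1 stretch of the cluster. In every library miR-411a was by far the most abundant member, the 4th most abundant of the 1030 names by mean CPM. It made up 95.7% ± 0.797 (SD, n = 30) of the reads on members, and the members together made up 5.44% ± 0.862 (SD, n = 30) of all reads, from 3.04 to 7.37% in a library. The rest of the domain, 48 names, made up 3.85% ± 0.523 (SD, n = 30), so that the members held 58.4% ± 4.26 of the domain's reads. Every member was above 0 in all 30 libraries.

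The gene next to it on either side gave far fewer reads. Expression of miR-411a was 52273 ± 9038 CPM (SD, n = 30), that of miR-379, 1 gene before, was 445 ± 64.5 CPM, and that of miR-299, 1 gene after, was 88.6 CPM, from 46.3 to 119 CPM. The second member in abundance was miR-380-3p, at 1426 ± 156 CPM, ranked 62nd of the 1030 names, and the library median of the ratio of miR-411a to it was 36.4 (range 19.3 to 43.4). These values compare reads on mature miRNAs of nearly one length and were not divided by length. Nothing else that can differ between miRNAs in how fully they are read was corrected, so these are comparisons of reads.

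Down the order of levels, miR-379 (rank 107) was followed by miR-411c-5p at 310 ± 36.7 CPM (rank 122), miR-299 (rank 168), miR-411c-3p at 25.9 ± 4.65 CPM (rank 237), miR-1197 at 10.4 ± 1.63 CPM (rank 297) and miR-411b at 5.69 ± 0.916 CPM (rank 325). The lowest were miR-299-2 at 1.48 ± 0.424 CPM (rank 406) and miR-380-5p at 1.05 ± 0.475 CPM (rank 426; SD, n = 30 for each). Most neighbours in this order did not overlap in range. The ranges of 3 pairs did overlap, and within a library miR-379 was above miR-411c-5p in 28 of 30, miR-1197 above miR-411b in 30 of 30, and miR-299-2 above miR-380-5p in 23 of 30. At the bottom of the order depth was limiting, with 7 to 22 reads per library for miR-299-2 and 2 to 21 for miR-380-5p.

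**Figure D1:**
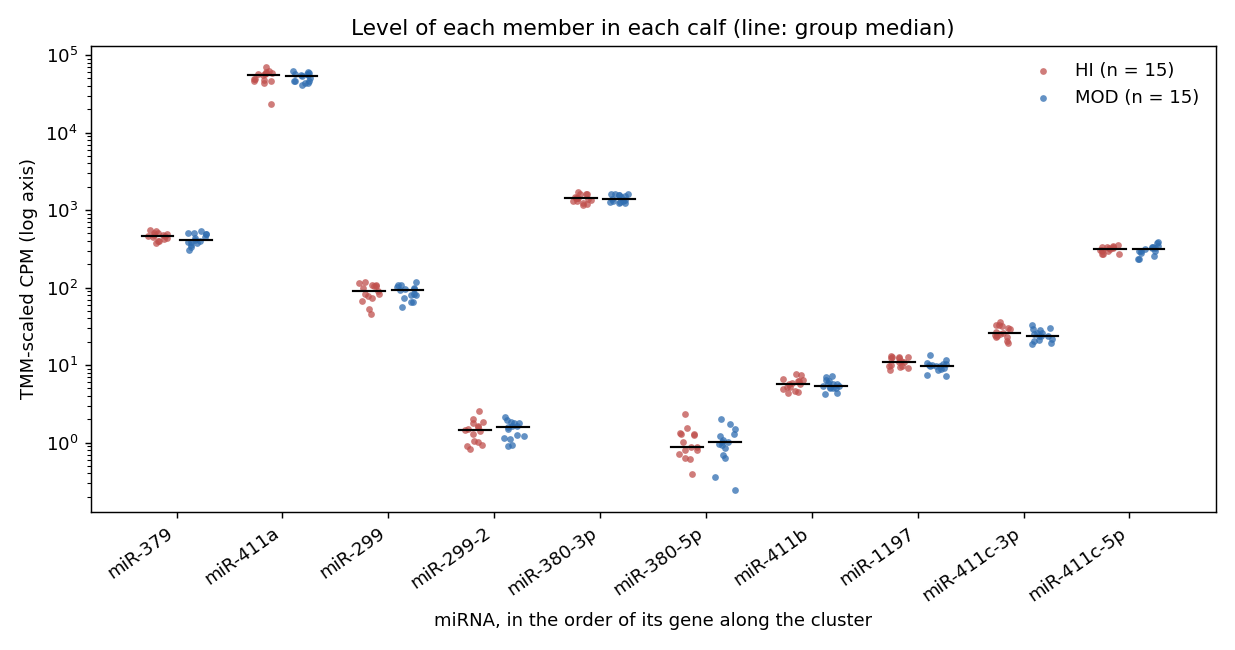
TMM-scaled CPM of the 10 members (log axis) in 15 HI (red) and 15 MOD (blue) calves, in the order of the genes along the cluster, with 1 point per calf and a line at each group's median. The points of miR-411a sit at 40909 CPM or more except for 1 HI calf at 23170 CPM, miR-299-2 and miR-380-5p sit near 1 CPM, and HI and MOD overlap for every member.

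Both hairpins with 2 named arms favoured 1 of them in every library, but to different degrees. The 5p arm of miR-411c exceeded its 3p arm with a median ratio of 11.9 (range 7.61 to 18.1), and this ratio was 12.0 ± 2.95 on HI and 12.6 ± 1.80 on MOD (SD, n = 15 each). The 3p arm of miR-380 exceeded its 5p arm with a median ratio of 1373 (range 618 to 6535), a ratio whose denominator was as low as 2 reads. Levels of the 2 arms of miR-411c showed no detectable relation across calves (r = 0.16, permutation p = 0.407, Benjamini-Hochberg p = 0.694, rho = 0.09, permutation p = 0.617, Benjamini-Hochberg p = 0.923, n = 30, and r = -0.00 without the 2 calves farthest from the median of miR-411c-5p). On total counts r was 0.33 (permutation p = 0.0758, Benjamini-Hochberg p = 0.182) and rho 0.30 (permutation p = 0.107, Benjamini-Hochberg p = 0.213).

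The first comparison asked whether the plane of nutrition changed these levels. It did not do so detectably for any member. Of the 10 members 9 passed the filter on low counts, and 0 of these 9 passed FDR < 0.1 in limma, against 15 of all 419 miRNAs tested, or 3.58%. Without adjustment 1 of the 9 had a p under 0.05 (53 of the 419 did), and edgeR's quasi-likelihood test and DESeq2 on the recovered reads also called 0 of 9, with 1 and 0 at an unadjusted p under 0.05. Fold changes are HI against MOD and on the log2(CPM + 1) scale, which understates the change of low miRNAs.

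For the most abundant member the diets had nearly the same level. Expression of miR-411a ran from 23170 to 70104 CPM in HI calves (median 55913, mean 52637 ± 10919, SD, n = 15) and from 40909 to 62759 CPM in MOD calves (median 53626, mean 51910 ± 7049, SD, n = 15). The MOD range lay wholly within the HI range. The log2 difference was -0.01 (95% interval -0.22 to 0.21, limma FDR = 0.984), so that the interval of the fold ran from 0.860 to 1.15. Without HI replicate 15, the calf at 23170 CPM, the log2 difference was 0.08, still with no call.

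The mean of its neighbour miR-379 was higher in HI calves, but not past the threshold. It ran from 374 to 556 CPM in HI (median 466, mean 466 ± 52.4, SD, n = 15) and from 303 to 534 CPM in MOD calves (median 411, mean 424 ± 70.0, SD, n = 15). The groups overlapped over most of their range, and 12 of 15 HI calves exceeded the median of MOD. The fold was 1.11 (95% interval 0.997 to 1.23, log2 difference 0.15, standard error 0.07), with p = 0.0571 and FDR = 0.413 in limma.

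The largest log2 difference among members, and the 1 unadjusted p under 0.05, belonged to miR-1197. It ran from 8.77 to 13.1 CPM in HI (median 11.1, mean 11.1 ± 1.50, SD, n = 15) and from 7.19 to 13.5 CPM in MOD calves (median 9.87, mean 9.82 ± 1.56, SD, n = 15). The highest calf of all was a MOD calf, and 10 of 15 HI calves exceeded the median of MOD. The fold was 1.12 (95% interval 1.00 to 1.24, log2 difference 0.16, standard error 0.08), with p = 0.0408 and FDR = 0.335 in limma. With upper quartile scaling or DESeq2 size factors in place of TMM, 0 members had an unadjusted p under 0.05 in limma. On total counts 2 did. The log2 difference of miR-1197 was 0.07 with upper quartile scaling, 0.15 with DESeq2 size factors and 0.22 on total counts (limma FDR = 0.651, 0.407 and 0.158).

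Expression of miR-299 was spread more widely within each diet, relative to its mean, than that of miR-411a, miR-379 or miR-1197. It ran from 46.3 to 119 CPM in HI (median 91.7, mean 88.9 ± 22.2, SD, n = 15) and from 55.7 to 119 CPM in MOD calves (median 93.2, mean 88.2 ± 18.3, SD, n = 15). Nearly the whole range was shared by the diets. The log2 difference was -0.01 (95% interval -0.26 to 0.25, limma FDR = 0.984). Its overlapping neighbour miR-299-2 averaged 1.45 ± 0.476 CPM on HI against 1.50 ± 0.381 CPM on MOD (SD over 15 calves), with a log2 difference of -0.03 (95% interval -0.22 to 0.16, limma FDR = 0.944).

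Over all 30 calves miR-380-3p, the more abundant arm of its hairpin, had the lowest coefficient of variation of the members, at 10.9%. In HI calves, where it was 11.7%, those of miR-411c-5p (8.67%) and miR-379 (11.2%) were lower. Levels of miR-380-3p ran from 1175 to 1737 CPM in HI (median 1439, mean 1424.5 ± 166, SD, n = 15) and from 1224 to 1627 CPM in MOD calves (median 1387, mean 1427 ± 151, SD, n = 15). The MOD range again lay within the HI range. Its log2 difference was -0.00 (95% interval -0.12 to 0.12, limma FDR = 0.984). The other arm, miR-380-5p, did not pass the filter and was at 0.393 to 2.37 CPM in HI (median 0.887) and 0.242 to 2.00 CPM in MOD calves (median 1.01), which overlap.

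The 3 remaining members also overlapped between diets. Expression of miR-411c-3p ran from 19.1 to 35.7 CPM in HI (median 25.9) and from 18.8 to 32.9 CPM in MOD calves (median 24.1), with a log2 difference of 0.12 (95% interval -0.07 to 0.30, limma FDR = 0.721). For miR-411c-5p the ranges were 268 to 357 CPM (median 318) and 231 to 383 CPM (median 318), and the log2 difference was 0.03 (95% interval -0.11 to 0.16, limma FDR = 0.934). For miR-411b they were 4.40 to 7.72 CPM (median 5.77) and 4.23 to 7.18 CPM (median 5.41), and the log2 difference was 0.04 (95% interval -0.12 to 0.19, limma FDR = 0.923). Of these miR-411c-3p had the highest estimate, with 10 of 15 HI calves over its median in MOD.

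**Figure D2:**
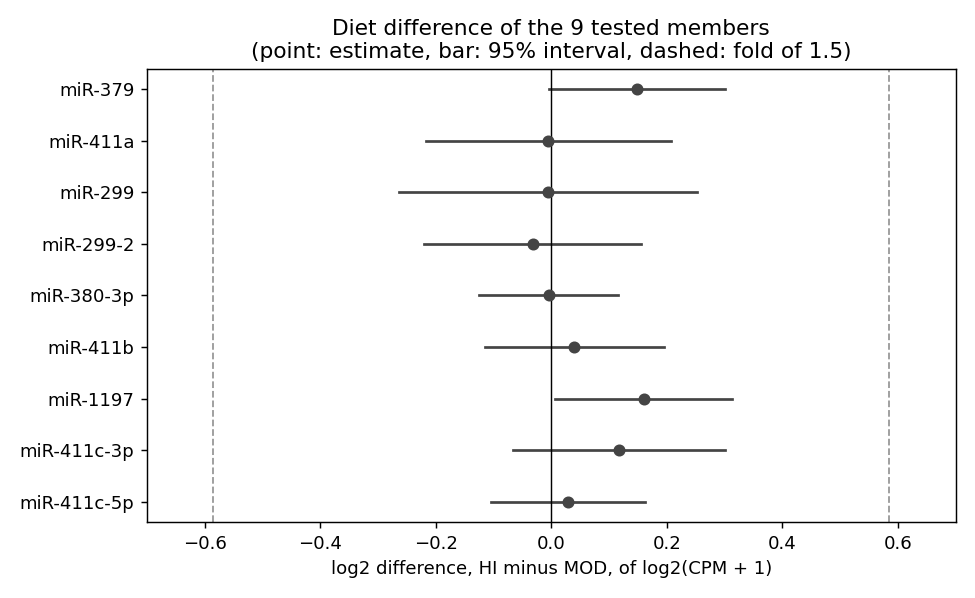
Log2 difference of HI minus MOD calves on the log2(CPM + 1) scale for the 9 tested members in gene order, with the limma estimate as a point, its 95% interval as a bar and dashed lines at a fold of 1.5 in either direction. All intervals lie inside the dashed lines, and that of miR-1197 (0.01 to 0.31) is the only one that leaves out 0.

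On the log2(CPM + 1) scale all 9 intervals lay inside a fold of 1.5, the size that the study required of a change. Over the 9 the median log2 difference was 0.03, with 5 higher and 4 lower in HI calves, beside a median of 0.02 with 230 higher and 189 lower over all 419. In the rest of the domain 44 names were tested, with a median of 0.07, 38 higher and 6 lower in HI calves. Of these 1 passed FDR < 0.1, miR-323, the first miRNA gene after MIR1197, with means of 81.1 CPM on HI against 67.7 CPM on MOD (fold 1.19, 95% interval 1.08 to 1.31, limma FDR = 0.0392, 13 of 15 HI calves over the median of MOD). That count was 0 with upper quartile scaling and 4 on total counts. The 3 most abundant names in the rest of the domain were miR-127, miR-410 and miR-136, with log2 differences of 0.02, 0.07 and 0.10 and FDR of 0.949, 0.841 and 0.746 in limma.

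A ratio of 2 miRNAs in the same library hardly depends on how libraries are scaled, and the 36 ratios between the 9 members were therefore also compared between diets. None passed an adjusted p under 0.05 in a permutation test, and 1 had an unadjusted p under 0.05. This was the ratio of miR-380-3p to miR-1197, at a log2 ratio of 6.89 ± 0.159 in HI and 7.05 ± 0.159 in MOD calves (SD, n = 15 each), a difference of -0.16 (permutation p = 0.00907, Benjamini-Hochberg p = 0.327). The ratio of miR-411a to miR-379 differed by -0.15 (permutation p = 0.242), that of miR-411a to miR-1197 by -0.17 (permutation p = 0.102) and that of miR-379 to miR-299 by 0.15 (permutation p = 0.271). For the 2 arms of miR-411c the difference was -0.09 (permutation p = 0.394).

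The last 4 digits of the calf labels fell into 4 ranges of 7, 3, 4 and 16 calves, which were compared because the calves came from several farms. What the ranges stand for is not given. They held 2 HI and 5 MOD, 2 and 1, 3 and 1, and 8 and 8 calves, and so were not balanced for diet. With the ranges as a block in the diet comparison, 0 members had an unadjusted p under 0.05 in limma. The log2 difference of miR-1197 was then 0.14 (limma FDR = 0.584). With diet in the model, 0 of the 9 members passed FDR < 0.1 in limma's F-test, against 1 of 419 miRNAs, or 0.239%, and 0 members had an unadjusted p under 0.05 (14 of the 419 did). The lowest p of a member was 0.167, for miR-411a, whose means in the 4 ranges were 51348 ± 5528, 51274 ± 8992, 44922 ± 15648 and 54704 ± 8040 CPM (SD). This rested on HI replicate 15, which is in the third range. Without it F of miR-411a fell from 1.81 to 0.400, and the mean of that range was 52172 ± 7201 CPM (SD, 3 calves). In edgeR's quasi-likelihood test 0 members and 0 miRNAs were called, with 0 and 18 at an unadjusted p under 0.05.

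The libraries of the 9 highest label numbers (5 HI and 4 MOD calves) were known from earlier results of these data to stand apart from the other 21 (10 HI and 11 MOD), a boundary drawn on miR-99b. The members' values in these sets are therefore a description, with no test. The widest gap was that of miR-299, at 66.1 ± 13.9 CPM in the 9 (range 46.3 to 91.7) and 98.2 ± 13.4 CPM in the 21 (range 72.5 to 119, SD). All 9 lay below the median of the 21, and 6 of the 21 lay below the highest of the 9, so the sets overlapped in part. All 9 also lay below the median of the 21 for miR-411c-3p, at 22.6 ± 2.64 against 27.3 ± 4.63 CPM. How many of all tested miRNAs lay so was not counted, so this is not shown to be particular to these members.

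Other members differed less between these sets. Expression of miR-411a was 47866 ± 11232 CPM in the 9 and 54162 ± 7449 CPM in the 21, that of miR-379 was 449 ± 53.7 and 443 ± 69.7 CPM, and that of miR-1197 was 10.7 ± 1.56 and 10.3 ± 1.69 CPM (SD). Thus, of the 3 genes that open the cluster, miR-299 was at 0.670 of its level in the 21 on the log2(CPM + 1) scale, miR-411a at 0.864 and miR-379 at 1.02. Levels of miR-380-3p were 1335 ± 137 and 1465 ± 150 CPM, and those of miR-411c-5p 295 ± 33.4 and 317 ± 36.9 CPM (SD). For each of these, 8 of the 9 lay below the median of the 21, and for miR-411a 6 did. Without HI replicate 15 the other 8 libraries of the 9 averaged 50953 ± 6795 CPM of miR-411a and 68.6 ± 12.6 CPM of miR-299 (SD, n = 8). The summed endocrine markers had medians of 224561 CPM in the 9 and 181109 CPM in the 21, and their part in these differences was not tested.

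**Figure D3:**
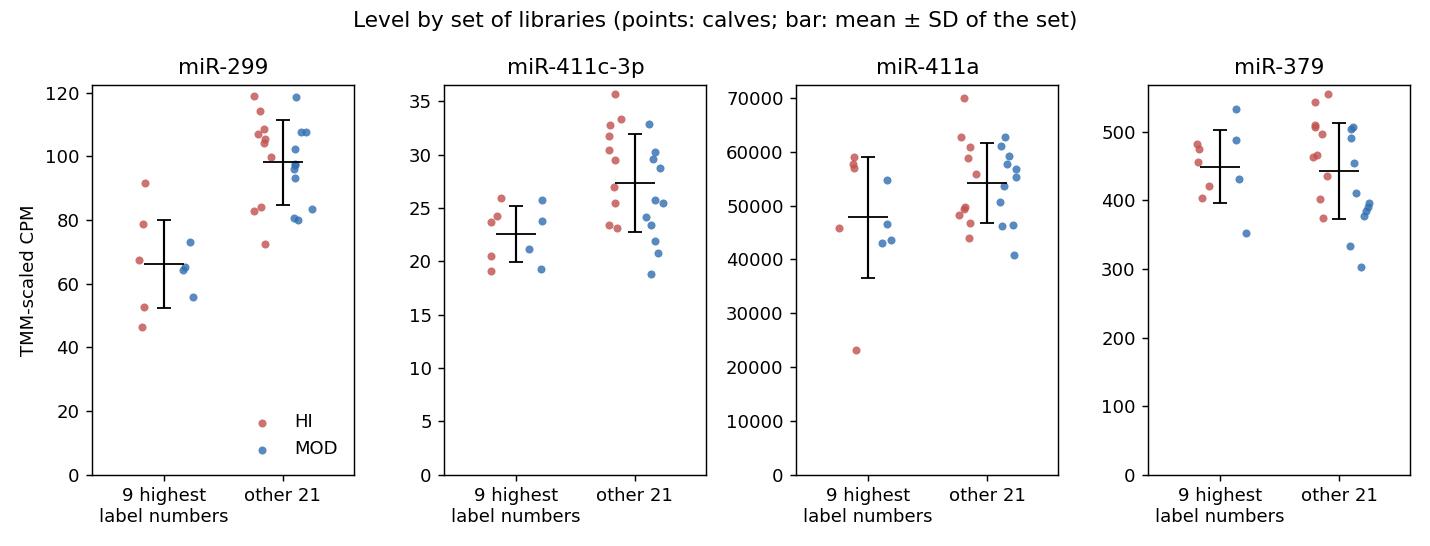
TMM-scaled CPM of miR-299, miR-411c-3p, miR-411a and miR-379 in the 9 libraries of the highest label numbers and in the other 21, with 1 point per calf (red HI, blue MOD) and the mean ± SD of each set. The 9 libraries lie low for miR-299 (mean 66.1 against 98.2 CPM) and miR-411c-3p (22.6 against 27.3 CPM) and not for miR-379 (449 against 443 CPM).

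Within these sets no diet difference of a member passed adjustment over the 18 tests. In the 21 libraries miR-379 was higher in HI calves by 0.21 on the log2 scale (exact permutation p = 0.0405, Benjamini-Hochberg p = 0.432), and in the 9 libraries by 0.00 (exact permutation p = 1.0). For miR-1197 the differences were 0.14 (exact permutation p = 0.144) and 0.20 (exact permutation p = 0.119). For miR-299 they were 0.04 (exact permutation p = 0.681) and 0.02 (exact permutation p = 0.889). An interaction of diet with set, a test chosen after the data were seen, was called for 0 of the 9 members and for 0 of 419 miRNAs (0%) in limma, with 0 and 21 at an unadjusted p under 0.05.

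One library stood apart among the members. In HI replicate 15, which belongs to the set of 9, miR-411a was at 23170 CPM, 0.424 of the median of the other 29 libraries, and the next lowest library was at 40909 CPM. In the same library miR-299 was the lowest of 30, at 46.3 CPM or 0.497 of the median, and miR-380-3p the second lowest, at 1199 CPM or 0.833 of the median. Of the other 7, miR-379 was at 456 CPM (1.00 of the median), miR-1197 at 10.0 CPM (1.00), miR-411c-5p at 306 CPM (0.961), miR-411c-3p at 23.7 CPM (0.931) and miR-411b at 4.90 CPM (0.869). The 2 lowest members, at 9 and 15 reads, were at 0.621 of the median for miR-299-2 and 1.63 for miR-380-5p. Members of 1 cluster were thus not all low in it. These ratios depend on its TMM factor, 1.21, the highest of the 30 libraries. On total counts, without that factor, all of its levels would stand higher against the other libraries. Among the 297 miRNAs with a median of at least 10 CPM this library held the lowest value for 38, more than any other library, and of the 33 such names in the rest of the domain it held the lowest for 7. Its sum of deposited values, at 828807 CPM, was the lowest of the 30 libraries and restates its TMM factor. It had the highest summed neural markers, at 1042 CPM, and the lowest summed red blood cell, endothelial and surface epithelium markers, at 10578, 8998 and 113 CPM. Its summed endocrine markers, at 179741 CPM, were the lowest of the set of 9. The part of these in its low miR-411a was not tested.

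**Figure D4:**
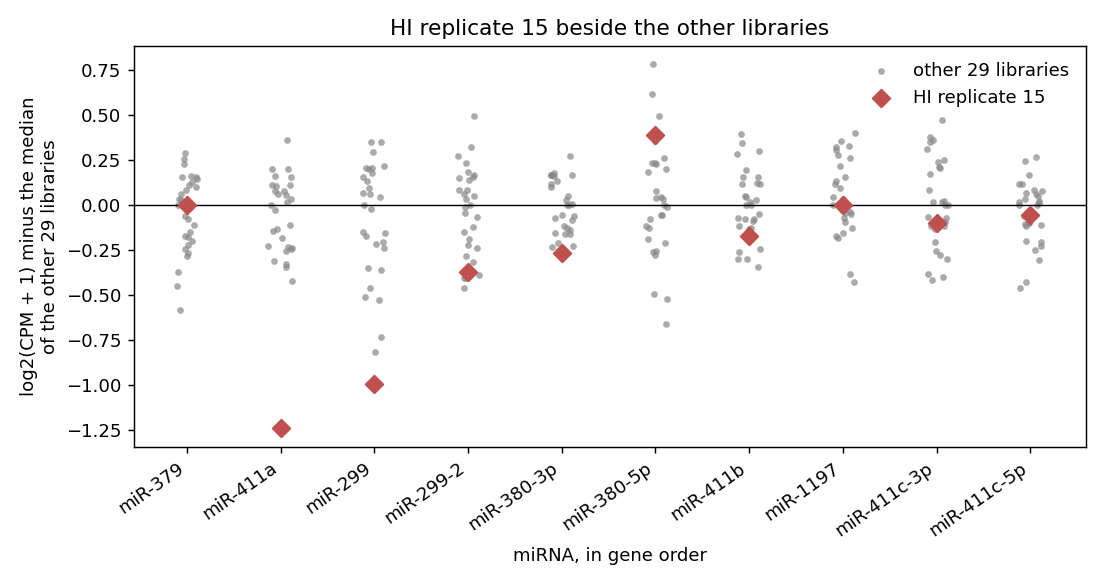
Log2(CPM + 1) of each member in HI replicate 15 (red diamond) and in the other 29 libraries (grey points), after subtraction of the median of those 29. The diamond lies at -1.24 for miR-411a and -0.99 for miR-299, below every other library, and at 0.00 for miR-379.

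Members were also compared in how they varied from calf to calf. The coefficient of variation was 28.7% for miR-299-2, 22.6% for miR-299, 17.3% for miR-411a, 14.5% for miR-379 and 10.9% for miR-380-3p. Over the 9 members its median was 16.1%, beside 19.8% over the 419 miRNAs, and 7 of the 9 lay under the latter. Within the 21 libraries, which leave out HI replicate 15, the coefficient was 13.8% for miR-411a and 13.6% for miR-299.

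Over the 36 pairs of tested members, 8 had a Pearson r with an adjusted p under 0.05 across the 30 calves, all positive, and 3 of these also did within the 21 libraries. By Spearman rho 10 pairs passed, 7 of these 8 and 3 others, and within the 21 libraries the same 3 as by r. None did within the 9, where r of these 8 pairs ran from 0.06 to 0.84. The 3 were pairs of miR-380-3p, with miR-411a, miR-411c-5p and miR-1197. For miR-380-3p and miR-411a, r was 0.75 (permutation p = 1e-05, the smallest that the resamples can give, Benjamini-Hochberg p = 0.00018) and rho was 0.86 (permutation p = 1e-05, Benjamini-Hochberg p = 0.00018). Without the 2 calves farthest from the median of miR-411a, HI replicate 15 and MOD replicate 1, r was 0.86. Within the 21 libraries it was 0.83 (Benjamini-Hochberg p = 0.00036), and within the 9 it was 0.68 (Benjamini-Hochberg p = 0.211).

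For miR-380-3p and miR-411c-5p, whose genes lie far apart in the cluster, r was 0.75 and rho 0.78 (permutation p = 1e-05 and Benjamini-Hochberg p = 0.00018 for each), r was 0.72 without the 2 farthest calves, 0.76 within the 21 libraries (Benjamini-Hochberg p = 0.00108) and 0.65 within the 9 (Benjamini-Hochberg p = 0.211). For miR-380-3p and miR-1197, r was 0.56 (permutation p = 0.00135, Benjamini-Hochberg p = 0.0121) and rho 0.63 (permutation p = 0.0002, Benjamini-Hochberg p = 0.00216), r was 0.56 without the 2 farthest calves, 0.60 within the 21 libraries (Benjamini-Hochberg p = 0.0436) and 0.83 within the 9 (Benjamini-Hochberg p = 0.0619). These pairs thus varied together in the larger set of libraries, and in the set of 9 none passed adjustment.

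The relations of miR-299 with other members passed adjustment in neither set. With miR-411a, the gene before it, r was 0.59 (permutation p = 0.00067, Benjamini-Hochberg p = 0.00804) and rho 0.45 (permutation p = 0.0122, Benjamini-Hochberg p = 0.044) over 30 calves. Without HI replicate 15 and MOD replicate 1, r was 0.48, within the 21 libraries it was 0.23 (Benjamini-Hochberg p = 0.882) and within the 9 it was 0.80 (Benjamini-Hochberg p = 0.0619). With miR-299-2, with which it may share reads, r was 0.52 (permutation p = 0.00329, Benjamini-Hochberg p = 0.0156) and rho 0.50 (permutation p = 0.00538, Benjamini-Hochberg p = 0.0242), r was 0.43 without the 2 farthest calves, 0.39 within the 21 libraries and 0.67 within the 9. Without the 2 farthest calves, HI replicates 15 and 12, rho was 0.44, and neither passed adjustment (Benjamini-Hochberg p = 0.0809 for r and 0.0664 for rho).

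The other 3 pairs of the 8 did not pass adjustment within the 21 libraries. For miR-299 and miR-411c-3p r was 0.53 (permutation p = 0.00278, Benjamini-Hochberg p = 0.0156) and rho 0.54 (permutation p = 0.00261, Benjamini-Hochberg p = 0.0134), with 0.59 without the 2 farthest calves, 0.41 within the 21 libraries and 0.06 within the 9. For miR-299 and miR-380-3p r was 0.52 (permutation p = 0.00347, Benjamini-Hochberg p = 0.0156) and rho 0.43 (permutation p = 0.0178, Benjamini-Hochberg p = 0.0584), with 0.43 without the 2 farthest calves, 0.14 within the 21 libraries and 0.76 within the 9. For miR-411c-5p and miR-1197 r was 0.53 (permutation p = 0.00253, Benjamini-Hochberg p = 0.0156) and rho 0.56 (permutation p = 0.00135, Benjamini-Hochberg p = 0.0081), with 0.37 without the 2 farthest calves, 0.51 within the 21 libraries and 0.84 within the 9. The 2 farthest calves, taken by the more abundant miRNA of each pair, were HI replicates 4 and 12 for miR-299 with miR-380-3p. They were MOD replicates 7 and 14 for miR-411c-5p with miR-1197, so HI replicate 15 was kept in both. Without its 2 farthest calves neither of these pairs passed adjustment. The adjusted p of r and rho was 0.0809 and 0.24 for miR-299 with miR-380-3p, and 0.165 and 0.0506 for miR-411c-5p with miR-1197, whose rho was then 0.47.

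The 3 pairs that passed by rho alone all passed by r without the 2 farthest calves. For miR-411a and miR-411c-5p rho was 0.62 (permutation p = 0.00024, Benjamini-Hochberg p = 0.00216) and r 0.40 (permutation p = 0.0306, Benjamini-Hochberg p = 0.11), with r of 0.66 without HI replicate 15 and MOD replicate 1, 0.50 within the 21 libraries and 0.20 within the 9. For miR-411a and miR-1197 rho was 0.59 (permutation p = 0.00071, Benjamini-Hochberg p = 0.00511) and r 0.40 (permutation p = 0.0289, Benjamini-Hochberg p = 0.11), with r of 0.53 without the same 2 calves, 0.49 within the 21 libraries and 0.55 within the 9. The third pair was negative. For miR-411c-5p and miR-411b rho was -0.46 (permutation p = 0.0107, Benjamini-Hochberg p = 0.0428) and r -0.31 (permutation p = 0.0902, Benjamini-Hochberg p = 0.25), with r of -0.51 without MOD replicates 7 and 14, -0.10 within the 21 libraries and -0.59 within the 9.

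The adjacent genes of miR-379 and miR-411a showed no detectable relation. For this pair r was 0.09 (permutation p = 0.627, Benjamini-Hochberg p = 0.868) and rho 0.15 (permutation p = 0.435), r was 0.17 without HI replicate 15 and MOD replicate 1, 0.16 within the 21 libraries and 0.09 within the 9. Of the 8 pairs of miR-379 with another tested member, the highest r was 0.30, with miR-411c-3p (permutation p = 0.106, Benjamini-Hochberg p = 0.272), with rho of 0.31 (permutation p = 0.0995, Benjamini-Hochberg p = 0.256) and r of 0.34 without the 2 farthest calves. On total counts r of this pair was 0.48 (Benjamini-Hochberg p = 0.0409) and passed, and r of miR-379 with miR-1197 went from 0.23 to 0.43.

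**Figure D5:**
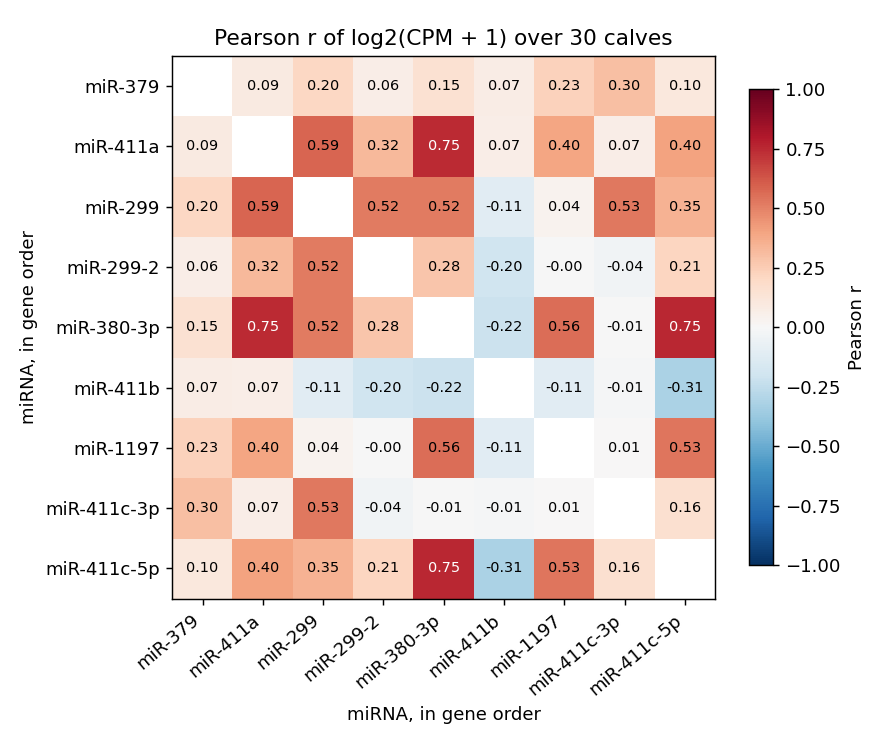
Pearson r of log2(CPM + 1) over the 30 calves for each pair of the 9 tested members, in gene order, from blue (negative) to red (positive). The darkest cells are those of miR-380-3p with miR-411a and miR-411c-5p (0.75 each), and the row of miR-379 holds no value above 0.30.

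The tested miRNAs most like each of 4 members over the 30 libraries, by Pearson r of log2(CPM + 1), are given as a description. For miR-411a they were miR-410 (r = 0.83), miR-369-3p (0.79), miR-381 (0.78), miR-380-3p (0.75) and miR-148a (0.75), of which 4 of 5 belong to the domain. For miR-379 they were miR-655 (0.78), miR-377 (0.73), miR-382 (0.70), miR-376e (0.68) and miR-376c (0.66), and 5 of 5 belong to the domain. These adjacent genes thus had none of the 5 in common.

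For miR-299 they were miR-2483-5p (0.76), miR-24 (0.75), miR-154b (0.74), miR-23a (0.72) and miR-296-5p (0.70), of which 1 of 5, miR-154b, belongs to the domain. For miR-1197 they were miR-1247-5p (0.63), miR-758 (0.62), miR-433 (0.61), miR-323 (0.60) and miR-130b (0.59), and 3 of 5 belong to the domain. Within the 21 libraries r of miR-379 with its 5 ran from 0.72 to 0.87, and r of miR-299 with its 5 from 0.35 to 0.70. There r of miR-411a with its 5 ran from 0.52 (miR-148a) to 0.84 (miR-410), with 0.59 for miR-369-3p. For miR-1197 it ran from 0.56 to 0.70. All these values share the same libraries and scaling.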

How the data were processed

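Small RNA libraries of the anterior pituitary of 30 bull calves, grouped by the diet in their labels, were analysed. The study trimmed adapters with Cutadapt, kept reads of 15 to 28 bases, took out reads of other small RNA classes and used miRDeep2 with the ARS-UCD1.2 genome to count reads on known miRNAs. What was deposited is a signal per miRNA and library, CPM that the authors scaled by TMM, and not counts. Reads were rebuilt from the smallest spacing of the low values, at least 94.7% of which came out whole within 0.02 reads in each library. No libraries were copies, with a chi-square per degree of freedom of at least 85.1 over 435 pairs.

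Diets were compared with limma 3.58.1 (lmFit, eBayes with a trend) in R 4.3.3 on log2(CPM + 1), as the design had foreseen for values other than counts, for the 419 miRNAs passing filterByExpr of edgeR 4.0.16 on recovered reads, with Benjamini-Hochberg FDR < 0.1. Single values were compared by two-sided permutation tests (1e+05 resamples, exact within sets). The scripts were tested on simulated data. Alternatives were edgeR's quasi-likelihood test and DESeq2 1.42.0 on recovered reads rounded to whole numbers, other scalings, filters, a pseudocount of 0.1, blocks by label number range and by set, log2 total reads as a covariate, and each calf left out. The labels do not name the calves' farms, and as nothing beyond the labels marks replicates, p-values measure the spread between calves as sampled.

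The members and lists were chosen with earlier results of these data known. Named miRNAs are all members, the 5 tested miRNAs most correlated with each of 4 members, and in the rest of the domain those with FDR < 0.1 and the 3 of highest mean CPM. HI replicate 15 was singled out after its values were seen. Gene names and neighbours come from RefSeq (ARS-UCD2.0, 10 of 10 names matched). Mature sequences were not used here.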

Additional observations from a re-analysis of the deposited data

Results flagged for a closer look

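Among 60 groups of 4 to 10 libraries (10 members in 6 groups by set, set and diet, or label number range), 4 held a library whose gap to its nearest neighbour took up more of the group's range than Dixon's 95% limit allows. Chance flags about 1 in 20 groups, which would be about as many. In the set of 9 libraries miR-411a was at 23170 CPM in HI replicate 15, against 43076 CPM in the next lowest. Among the 7 calves of the first label number range miR-299 was at 52.6 CPM in HI replicate 12, against 80.0 CPM in the next lowest. The other 2 concern miR-380-5p, near the limit of depth, at 1.56 CPM in HI replicate 15 against 0.887 CPM in the next highest of 5 HI libraries of the set of 9, and at 2.37 CPM in HI replicate 8 against 1.35 CPM in the next highest of the 10 other HI libraries.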

How the results depend on the processing

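No member was called between diets under any of 11 alternatives (lowest FDR 0.158) or with any 1 calf left out (lowest 0.202), and none between label number ranges (lowest 0.738 over 315 values). Signs of differences near 0 turned without a call, and the cause was not tested. For miR-411a the log2 difference of -0.01 became 0.0266 in edgeR, 0.0126 in DESeq2, 0.0582 on total counts, 0.0346 with the label range as a block and 0.00899 with the set as a block. For miR-299 it became 0.0189, 0.00556, 0.0567 and 0.0329 in edgeR, DESeq2, on total counts and with the set as a block. For miR-380-3p it became 0.00295, 0.0589 and 0.00446 in edgeR, on total counts and with the set as a block, and for miR-299-2 0.000518 on total counts. With upper quartile scaling, which moved the median of all miRNAs to -0.07, it became -0.0438 for miR-411b and -0.0706 for miR-411c-5p. Leaving out 1 calf gave -0.0374 to 0.0767 for miR-411a, -0.0502 to 0.0570 for miR-299 and -0.0255 to 0.0147 for miR-380-3p.

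The 15 miRNAs called between diets (8 higher, 7 lower in HI) became 24 with DESeq2, 29 with upper quartile scaling (3 higher, 26 lower) and 18 on total counts (16 higher, 2 lower), and 14 to 21 without 1 calf. The 1 call in the rest of the domain became 2 with edgeR, 2 with DESeq2, 4 on total counts, 0 with upper quartile scaling and 3 with the set as a block, and 1 to 3 without 1 calf. The 1 call between label ranges became 0 in edgeR (18 at an unadjusted p under 0.05) and 0 to 2 without 1 calf. The 8 pairs correlated by r became 3 within the 21 libraries and 0 within the 9, where fewer calves were used. They became 7 on total counts, 6 of the 8 and miR-379 with miR-411c-3p, and 8 without the 2 farthest calves, 5 of the 8 and 3 others. No ratio between members passed adjustment with either pseudocount. No paired analysis was possible because HI and MOD calves share no number in the labels. The blocks in which the study assigned diets are not named there either, so the diet tests left them out. Depth limits miR-299-2 and miR-380-5p, at 2 to 22 reads per library.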
